A study of Lithobates clamitans with 20 samples.

Results

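Some genes of the gut differed widely between tadpoles that had been treated alike. The 100 genes with the widest differences, within the limits given below, were examined here in the green frog, Lithobates clamitans. They were chosen by measured values. For each gene, log2 CPM (reads of the gene relative to the library total, scaled by the TMM factors of edgeR, with a prior count of 2) were taken, and their standard deviation (SD) was computed over the 5 tadpoles of each of 4 groups. The 100 genes with the highest median of the 4 SDs were kept. Only genes with no count of 0 in any of the 20 tadpoles and with a mean CPM from 10 to below 1000 were eligible, which was true of 3773 of the 8477 genes in the table. The spread within groups is therefore what chose the members and is given as a description without a test. Differences between the group means did not enter the choice.

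All 20 tadpoles were offspring of 1 mating pair, so the tadpoles compared here were full siblings. They were raised singly at 22°C and were picked by the authors to be alike in size and stage. Colonized tadpoles had been kept in water that contained untreated pond water, and for depleted tadpoles the pond water had been autoclaved. Warm tadpoles then spent 1 day at 32°C, cool tadpoles stayed at 22°C, and RNA came from 1 of 2 portions of the whole gut, with 1 library per tadpole. The authors aimed to share sections along the gut evenly between the portions. Differences between animals, between gut portions and between library preparations cannot be told apart here.

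The records of which tadpole had which treatment disagree. Read by animal code, C and D stand for colonized and depleted and 22 and 32 for the temperature. The treatment fields give the same meaning to C22 (cool colonized) and D32 (warm depleted), but they record the tadpoles coded C32 as cool depleted and those coded D22 as warm colonized. The same 5 tadpoles make up each group under either record, so the members do not depend on it, and the groups are called by their codes. A comparison of codes 32 and 22 is one of temperature by code and one of colonization by field. A comparison of codes D and C is one of colonization by code and one of temperature by field. By edgeR's likelihood ratio test (adjusted p under 0.05), 1733 genes passed for codes 32 against 22 and 6 for codes D against C. Counts were 948 for D32 against D22, 257 for C32 against C22, 127 for D22 against C22 and 8 for D32 against C32. The paper reports more genes for temperature than for colonization, and more for heat in depleted than in colonized tadpoles. Read by code, the counts have both orders, and by field neither. Over all tadpoles, the counts read by code are also the same as those the paper gives for temperature and for colonization. The grouping by code thus matches the one behind those comparisons of the paper. The counts within colonized and within depleted tadpoles by code differ from the paper's in size. Whether the codes or the fields give the treatment that each tadpole received was not tested. Within each group the values below are listed in the order C2201, C2204, C2206, C2207 and C2208, then C3204, C3205, C3207, C3208 and C3210, then D2201, D2202, D2203, D2206 and D2209, then D3202, D3203, D3205, D3206 and D3207.

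The tadpole gut is a long coiled tube in which absorptive, mucous and hormone-producing epithelial cells lie beside muscle, nerve and immune cells, and bulk RNA mixes them all. In other vertebrates, genes of immunity, digestion and detoxification are often among those that vary most between individuals. The identifiers in the table belong to the genome of the American bullfrog, a congener to which the reads were mapped, and are not paired with gene names in the sources used here. No role is therefore given for any member, and gut marker genes were not checked. In bulk samples, fewer cells of a type and less RNA per cell cannot be told apart.

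The libraries held between 11102195 and 22922461 counts, with a median of 20804786.5, and the shallowest was that of C2208. TMM factors ran from 0.682 to 1.29. The members' share of a library's counts ran from 0.603% to 3.06%, with a median of 1.30%, and was highest in D3203. The labels give no sequencing batch or date.

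The median of the 4 SDs ran from 1.19 to 3.21 log2 units among the 100 members, with a median of 1.45, against a median of 0.40 among all eligible genes. Between the lowest and the highest of the 20 tadpoles, the members ranged from 10.3-fold to 2514-fold, with a median of 62.8-fold, whereas the median eligible gene ranged over 3.91-fold. A range of 100-fold or more was seen in 32 members. Folds of ranges and gaps, here and below, come from log2 CPM with the prior count. They lie below the ratios of the CPM. The median member had an SD of 1.59 in C22, 1.53 in C32, 1.12 in D22 and 1.73 in D32. Among the members, which these SDs chose, D22 thus had the least spread. Over all eligible genes the median SD was 0.44 in C22, 0.35 in C32, 0.41 in D22 and 0.42 in D32, lowest in C32. In 33 members the SD was above 1 in all 4 groups, in 81 it was above 1 in at least 3 groups, and in the other 19 it was above 1 in exactly 2.

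These ranges were wide beside the counting error. The lowest count of a member in any library ran from 3 to 983 over the members, with a median of 50.5. Poisson error alone corresponds to an SD of 0.10 log2 units for the median member and 0.31 for the member with the most counting error, which leaves out any error of amplification, since these reads carried no molecular identifiers.

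The threshold fell in a continuous range. The last members inside it were AB205_0062470 with a median SD of 1.21 and AB205_0115840 with 1.1854, and the first genes outside it were AB205_0025400 with 1.1828 and AB205_0044730 with 1.1822. AB205_0115840, the last member, had CPM of 81.8, 70.5, 91.4, 86.0 and 68.1 in C22 and 58.0, 67.6, 67.9, 72.1 and 13.3 in C32. It had 14.3, 14.3, 17.3, 103 and 73.3 in D22 and 61.0, 12.2, 60.2, 57.2 and 9.87 in D32. In this gene 6 tadpoles lay at 17.3 or below and the other 14 at 57.2 or above, and no low tadpole was found in C22.

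A group that had no part in the choice also showed the spread. When the 100 genes were chosen on the other 3 groups alone, their median SD in the group left out was 1.21 in C22 against 0.44 for all eligible genes, 1.21 against 0.35 in C32, 0.95 against 0.41 in D22, and 1.41 against 0.42 in D32. Of the 100 genes so chosen, 93, 94, 85 and 94 lay above the eligible median in C22, C32, D22 and D32. Above the 90th percentile of the eligible genes lay 72, 71, 63 and 68 of them. Genes that spread widely in 3 groups of siblings thus mostly spread widely in the remaining group too.

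Among the eligible genes, the one with the highest median SD, 3.21, was AB205_0054730. Its CPM were 607, 5.35, 298, 3.13 and 83.1 in C22 and 209, 8.17, 907, 1123 and 1154 in C32. In D22 they were 705, 1063, 1802, 369.7 and 1525, and in D32 1498, 3.70, 687, 446 and 168. C2204, C2207, C3205 and D3203 were low, at 3.13 to 8.17 CPM, and the other 16 tadpoles lay at 83.1 or above, with every D22 tadpole on the high side. AB205_0209510 had the next highest median SD, 2.89, with CPM of 37.0, 0.288, 0.335, 21.4 and 21.0 in C22 and 30.0, 19.2, 31.2, 24.6 and 21.0 in C32. Its CPM were 55.0, 0.566, 64.8, 48.1 and 44.2 in D22 and 19.8, 16.6, 26.4, 0.112 and 19.5 in D32. Here C2204, C2206, D2202 and D3206 were low, with 3 to 9 reads each, while the other 16 tadpoles lay within 16.6 to 64.8 CPM.

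AB205_0046280 and AB205_0066860 divided the tadpoles in the same way. The CPM of AB205_0046280 were 49.4, 21.6, 21.2, 27.2 and 647 in C22, 23.6, 123, 39.5, 0.874 and 0.746 in C32, 0.814, 12.9, 25.03, 24.6 and 0.710 in D22, and 54.7, 0.719, 17.4, 0.300 and 1.70 in D32. Those of AB205_0066860 were 70.2, 90.7, 95.6, 101 and 58.0 in C22, 62.7, 264, 85.8, 2.62 and 2.94 in C32, 4.41, 48.9, 117, 113 and 3.06 in D22, and 136, 2.52, 36.6, 1.91 and 2.90 in D32. In both genes the same 7 tadpoles were low, namely C3208, C3210, D2201, D2209, D3203, D3206 and D3207, and no C22 tadpole was. With the prior count, the gap between the low and the high side was 7.24-fold in AB205_0046280 and 8.13-fold in AB205_0066860. The same 7 tadpoles were also the lowest 7 in AB205_0148310, although without a wide gap. Its CPM were 39.7, 7.77, 6.46, 42.2 and 20.2 in C22, 7.15, 34.7, 103, 1.20 and 2.55 in C32, 1.90, 3.71, 8.77, 8.44 and 1.47 in D22, and 13.2, 2.52, 5.22, 1.65 and 1.55 in D32. After removal of the group means, AB205_0148310 correlated with AB205_0046280 at r = 0.77 (rho = 0.81) and with AB205_0066860 at r = 0.79 (rho = 0.79) over the 20 tadpoles, which share libraries and scaling. The identifiers of the 3 genes are not consecutive.

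AB205_0122660 also parted the tadpoles. Its CPM were 2.11, 97.1, 2.60, 90.1 and 129 in C22 and 85.3, 4.13, 3.86, 4.14 and 3.10 in C32. In D22 they were 39.5, 2.77, 3.75, 63.4 and 3.82, and in D32 2.04, 0.411, 1.84, 145 and 56.7. Thus 12 tadpoles lay at 4.14 or below and 8 at 39.5 or above, and each group had tadpoles on both sides. The gap was 9.35-fold with the prior count.

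A wide gap of this kind was counted by a rule chosen after the values had been seen: neighbouring tadpoles in the sorted values at least 2 log2 units apart, with at least 3 tadpoles on each side. It was met by 10 of the 100 members and by 11 of the 3773 eligible genes (0.292%), and a high SD favours such genes by construction. Besides the genes above they were AB205_0046770 with 6 tadpoles on the low side, at 0.710 to 2.07 CPM against 11.7 to 102, and AB205_0151500 with 4, at 0.754 to 2.28 against 24.3 to 52.1. AB205_0189740 had 5 on the low side, at 8.86 to 14.7 against 146 to 310.2 CPM. AB205_0088560 had 3, at 6.30 to 10.6 against 60.8 to 330.3, and AB205_0192830 had 3, at 3.44 to 7.46 against 103 to 226. The low side of each of the 10 genes drew tadpoles from at least 2 of the 4 groups, and no group lay wholly on the low side of any. The rule favours this too, since a gap that parts whole groups adds no spread within them. Nothing about treatment is therefore read from it. Every tadpole but C3204 was on the low side of at least 1 of the 10 genes, and D2209 was so most often, in 5.

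**Figure D1:**
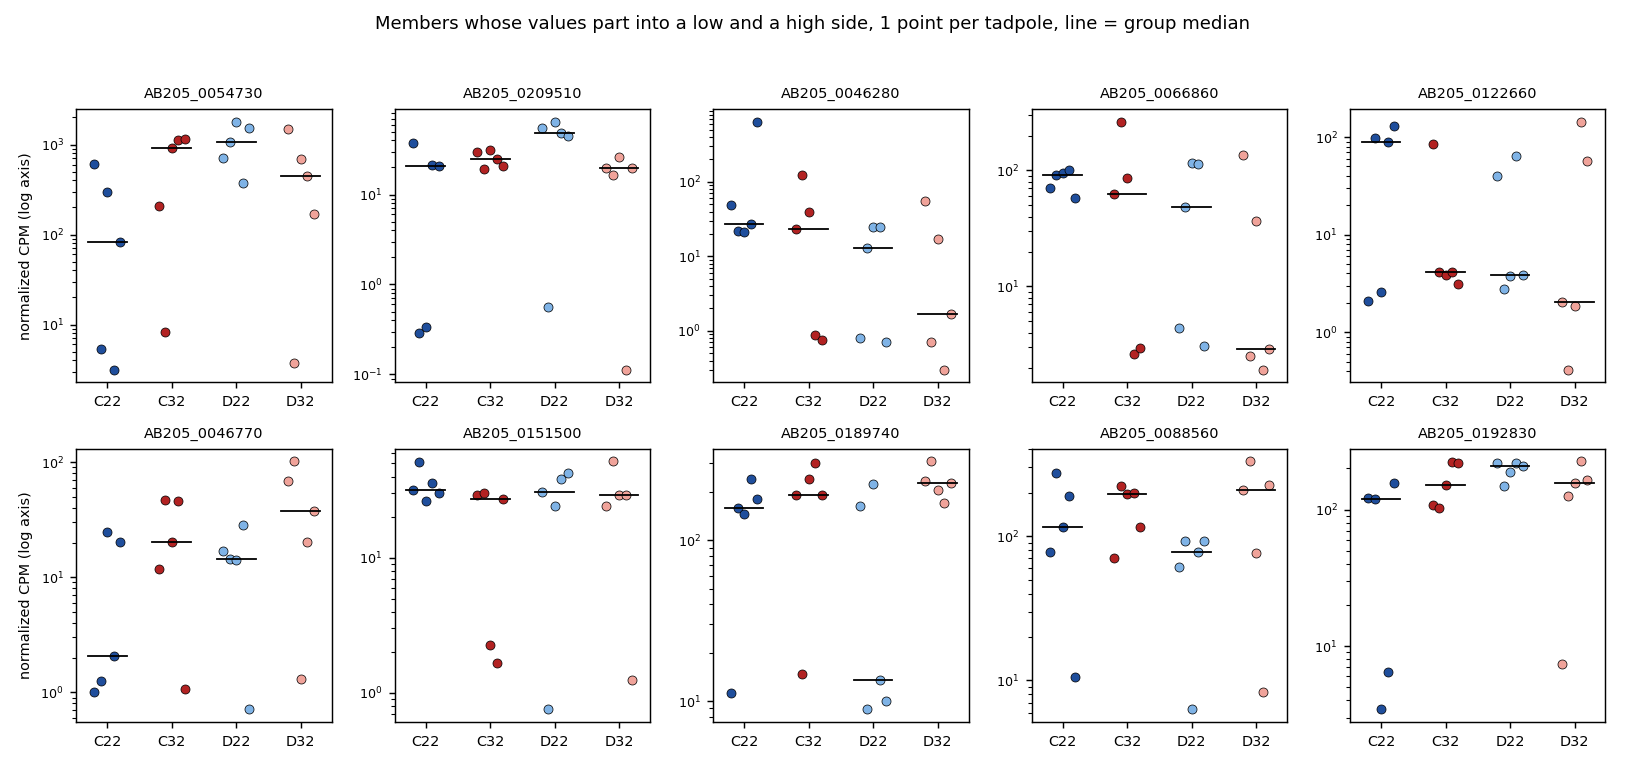
Normalized CPM (log axis) of the 10 members with a wide gap, 1 point per tadpole by code group, with a line at the group median. In AB205_0122660, 12 tadpoles lie at 4.14 CPM or below and 8 at 39.5 or above, and AB205_0046280 and AB205_0066860 have the same 7 low tadpoles.

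Other members of the first 10 were spread without a gap. AB205_0053320, with a median SD of 2.28, had CPM of 80.2, 8.46, 1136, 56.4 and 31.2 in C22 and 1906, 100.1, 336, 7.17 and 32.0 in C32. It had 189, 49.3, 100.04, 306 and 96.4 in D22 and 44.3, 669, 48.7, 83.0 and 17.0 in D32. Its highest tadpoles, C2206 and C3204, were in different groups, and all 4 groups overlapped. AB205_0204650, with a median SD of 2.34, had CPM of 93.3, 24.9, 4.03, 3.81 and 37.5 in C22 and 123, 6.58, 1.91, 3.17 and 75.8 in C32. It had 18.4, 49.4, 27.7, 3.01 and 12.7 in D22 and 39.6, 1.80, 107, 2.96 and 2.36 in D32, and again all 4 groups overlapped.

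Whether the members varied together was described with each tadpole's deviation from its group mean on the log2 scale. Over the 4950 pairs of members the median Pearson r was 0.03 and the median size of r was 0.27, against 0.25 among all pairs of eligible genes. High correlations were more frequent among the members, with r above 0.7 in 200 pairs (4.04%) against 1.65% of eligible pairs. Correlations under -0.7 were found in 43 member pairs (0.869% against 1.10%). These values rest on 20 tadpoles that share libraries and scaling. The members were chosen by the size of these same deviations, which favours genes with an outlying tadpole. Genes that share an outlying tadpole correlate through it, so the shares of pairs are a description and no test. They were not computed without D3203. The first principal component of the members' deviations held 29.4% of the variance and the second 17.3%, against 22.3% and 17.2% for all eligible genes. Without D3203, the first held 24.1% of the members' variance, and without D3203 and C2208 it held 21.7%. The share for all eligible genes was not computed without these tadpoles, so these values have no counterpart there.

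Clustering on r gave 6 co-varying sets of at least 5 members, which held 63 members. Another 23 members fell into sets of 2 to 4 and 14 stood alone. The sets were built from these deviations, so their correlations describe them and are no test. As pairwise summaries of the set means over the 20 tadpoles, set 1 ran against set 3 (r = -0.76) and with set 2 (r = 0.64), and set 2 ran against set 5 (r = -0.64). D3203 stood at 2.85 log2 units from its group mean in set 1 and at -3.30 in set 3. C3205 stood at 2.23 and -2.41. The part of single tadpoles in these r was not tested.

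**Figure D2:**
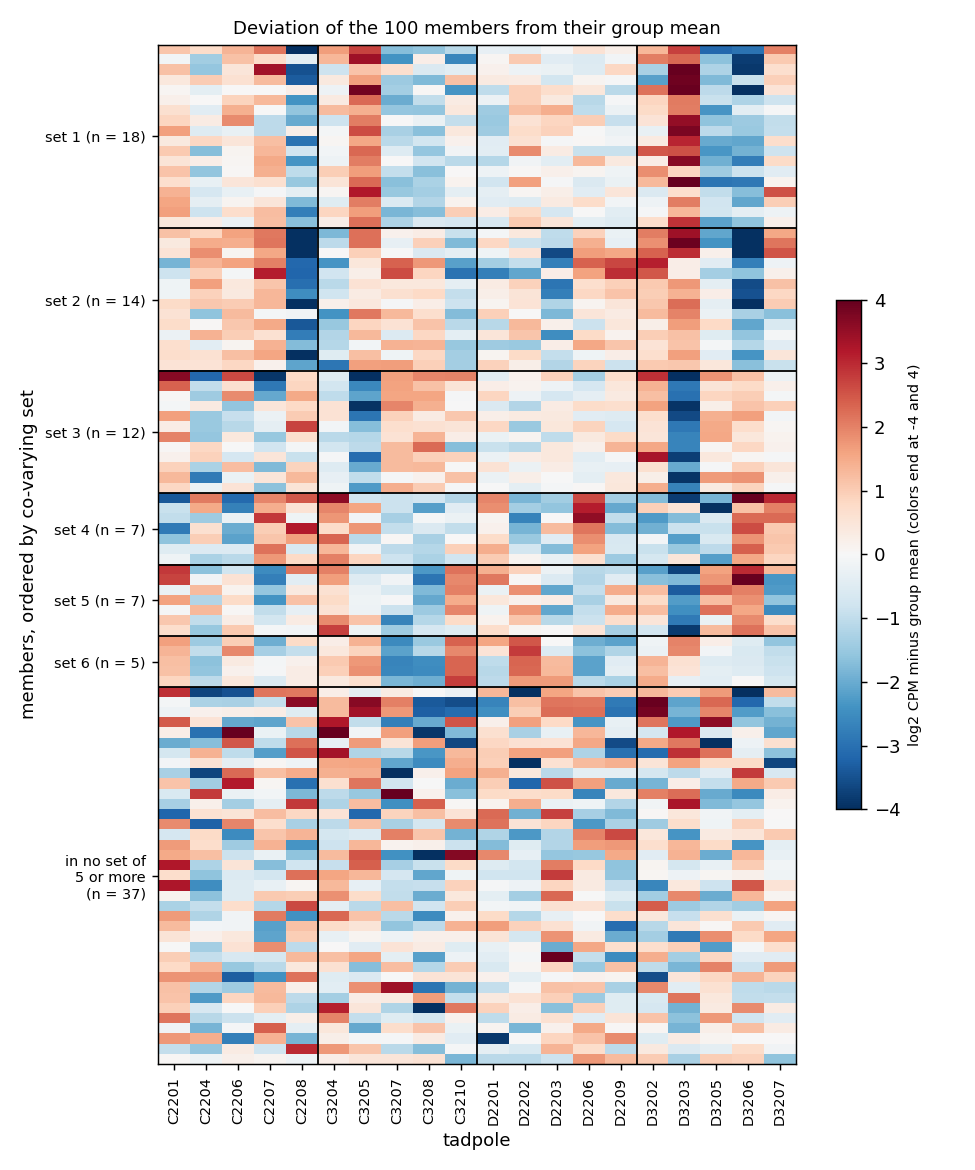
Deviation of each of the 100 members (rows, ordered by co-varying set) from its group mean in each of the 20 tadpoles (columns), in log2 CPM, with red above and blue below the mean. Set 1 (n = 18) is red in D3203 and C3205 and blue in D3206, and set 3 (n = 12) is blue in D3203 and C3205.

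Set 1 had 18 members with a median r of 0.69, and AB205_0212320 and AB205_0062470 correlated best with the rest. AB205_0212320 had CPM of 351, 179, 305, 344 and 76.6 in C22 and 76.3, 262, 17.0, 22.4 and 59.4 in C32. It had 58.6, 308, 96.3, 65.9 and 82.8 in D22 and 330.1, 2709.8, 17.6, 18.4 and 146 in D32. D3203 was by far the highest tadpole, and D3205 and D3206 of the same group were among the lowest 4 of all 20. AB205_0062470, a much scarcer transcript at 1.53 to 56.8 CPM, followed it with r = 0.95 (rho = 0.89). Over the set, D3203 stood 2.85 log2 units above its group mean and C3205 2.23, with all 18 members above in both. D3206 stood at -2.11 and D3205 at -1.66, with all 18 below, and C2208 at -1.85.

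AB205_0031170 of set 1 differed in spread from group to group. Its CPM were 687, 532, 825, 1399.8 and 7.75 in C22 and 713, 1453, 68.5, 75.3 and 104 in C32. They were 14.0, 13.5, 17.0, 26.3 and 20.7 in D22 and 320.1, 845, 14.4, 16.2 and 517 in D32. All 5 D22 tadpoles were low and alike, whereas C22 held 4 high tadpoles and 1 low one. In edgeR's quasi-likelihood test, described below, this gene was called higher in D32 against D22. Its log2 fold change was 4.23 (adjusted p = 0.0356), and it passed in 2 of 10 fits that left out 1 tadpole.

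Set 2 had 14 members with a median r of 0.66, led by AB205_0193900 and AB205_0046750. AB205_0193900 had CPM of 106, 83.8, 142, 199.8 and 0.775 in C22 and 25.2, 410.1, 100.4, 109.7 and 47.4 in C32. It had 41.5, 59.0, 21.6, 83.4 and 36.5 in D22 and 300.1, 759, 17.0, 2.28 and 214 in D32. C2208 and D3206 were far below all others, and over the set they stood at -3.25 and -3.14 log2 units. All 14 members lay below the group mean in C2208, in D3206 and in C3210, and all 14 lay above it in D3202 and D3203. C2208 was the shallowest library, with 11102195 counts, but D3206 held 22156331, and the part of depth in the set was not tested. AB205_0203630, also in this set and of the same order of spread, followed AB205_0193900 with r = 0.97 (rho = 0.94). AB205_0046750, the most abundant of the 14 at a mean of 833 CPM, ran at r = 0.97 with AB205_0088560.

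Set 3 had 12 members with a median r of 0.67, led by AB205_0137590 and by AB205_0054730, the most variable of the eligible genes. AB205_0137590 had CPM of 179, 83.1, 147, 32.5 and 146 in C22 and 178, 41.6, 542, 405 and 195 in C32. It had 669.9, 511, 641, 689.5 and 912 in D22 and 987, 57.2, 461, 676 and 349 in D32. D3203 and C3205, the tadpoles in which set 1 was high, were the lowest of their groups, and over the set they stood at -3.30 and -2.41 log2 units with all 12 members below the mean. No D22 tadpole overlapped C22 in this gene.

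Set 4 had 7 members with a median r of 0.67, led by AB205_0122660 and AB205_0023040, which ran at r = 0.94 (rho = 0.89). All 7 members were above the group mean in C2207, C3204, D2201, D2206, D3206 and D3207, at 1.04 to 2.31 log2 units over the set. These are 6 of the 8 tadpoles on the high side of AB205_0122660. AB205_0023040 had CPM of 6.58, 40.0, 4.53, 43.7 and 63.4 in C22, 23.2, 2.12, 4.70, 1.79 and 4.59 in C32, 14.3, 2.95, 6.13, 31.3 and 5.40 in D22, and 7.90, 1.75, 5.52, 29.8 and 18.3 in D32. The same 8 tadpoles, C2204, C2207, C2208, C3204, D2201, D2206, D3206 and D3207, were its highest 8.

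Set 5 had 7 members with a median r of 0.60, led by AB205_0174360 and AB205_0042100 (r = 0.82 between them, rho = 0.83). AB205_0174360 had CPM of 14.6, 2.01, 8.05, 0.819 and 10.8 in C22, 24.5, 13.0, 14.0, 3.45 and 40.9 in C32, 11.1, 9.30, 10.05, 3.24 and 10.6 in D22, and 15.3, 1.85, 21.4, 32.5 and 2.94 in D32. Over the set D3206 stood highest, at 2.35 log2 units, and D3203 lowest, at -2.88, so these tadpoles of 1 group were again at opposite ends. AB205_0071200 and AB205_0071210 of this set have consecutive identifiers and ran at r = 0.98 (rho = 0.97).

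Set 6 had 5 members with a median r of 0.75. Its leading members, AB205_0025160 and AB205_0198260, were the closest pair among all 4950, with r = 0.998 (rho = 0.995). AB205_0025160 had CPM of 714, 98.2, 392, 295 and 346 in C22, 396, 645, 31.0, 34.3 and 968 in C32, 83.5, 857, 411, 38.4 and 124 in D22, and 1306, 777, 357, 342 and 277 in D32. AB205_0198260 had 289, 43.2, 143, 123 and 157 in C22, 167, 301, 13.9, 14.8 and 432 in C32, 35.3, 380.2, 190.0, 17.4 and 59.5 in D22, and 502, 317, 168, 153 and 123 in D32. Both genes were high in the same tadpoles and low in the same tadpoles of every group, and their identifiers are not consecutive. Whether their sequences are alike, so that reads could be shared between them, was not tested.

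Non-members moved with some of the sets. Of the 3673 eligible genes outside the 100, 65, 59, 16, 13, 6 and 89 correlated with the means of sets 1 to 6 at r above 0.8. At r above 0.9 these were 4, 11, 2, 3, 0 and 10. With the mean of set 6, another 49 correlated at r under -0.8, against 18, 3, 1, 1 and 3 for sets 1 to 5. A gene of the table with a consecutive identifier existed for 69 of the 100 members and for 5713 of all 8477 genes. In 8 members that neighbour was itself a member, in 4 pairs with r of 0.98, 0.63, 0.35 and 0.30.

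Some tadpoles were far more often than others at an end of their group. With 5 tadpoles per group, an equal share would make each the highest of its group in 20 members and the lowest in 20. A choice by spread favours genes in which an outlying tadpole is at an end, and members of a set move together. The counts are therefore a description without a test. D3203 was the highest of D32 in 43 members and the lowest in 34, and was thus at an end of its group in 77 of 100. D3206 was at an end in 54 members (25 highest, 29 lowest), C3205 in 53 (35 and 18) and C2208 in 51 (16 and 35). D3207 was at an end in the fewest, 15. Among all eligible genes, D3203 was highest in 31.3% and lowest in 27.6%, so it stood apart there also. The shares among eligible genes were 16.9% and 19.3% for D3206, 24.9% and 23.6% for C3205, and 17.1% and 27.1% for C2208. Of the 100 members, 80 were chosen again without C2208 and 98 without D2201, which were the lowest and the highest number over the 20 tadpoles left out in turn.

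**Figure D3:**
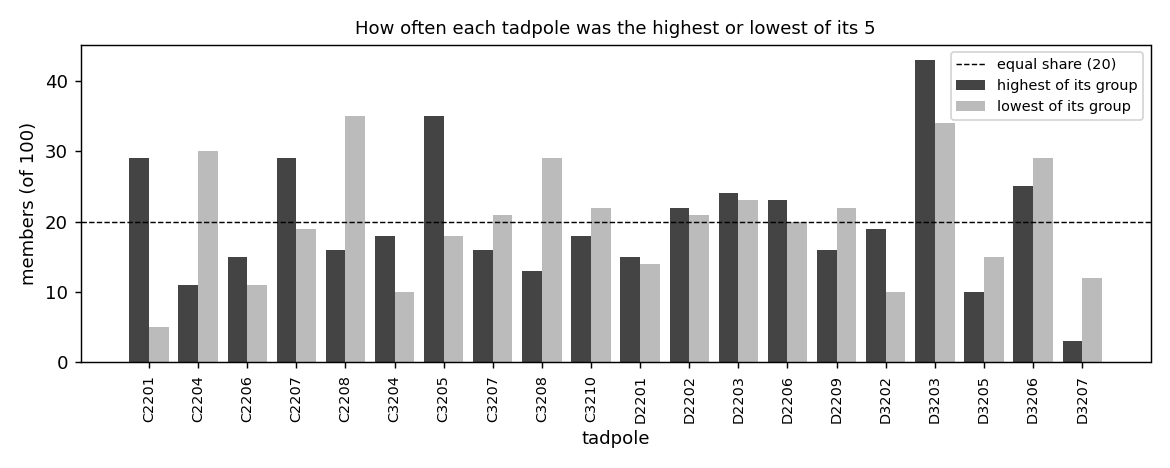
Number of the 100 members (vertical axis) in which each tadpole (horizontal axis) was the highest (dark bars) or the lowest (light bars) of its 5, with a dashed line at the equal share of 20. D3203 was highest in 43 and lowest in 34, and D3207 highest in 3 and lowest in 12.

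The comparisons of groups were tested with edgeR's quasi-likelihood test over all 8477 genes. A gene was called where its Benjamini-Hochberg adjusted p was under 0.05.

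In codes 32 against 22, 8 of the 100 members were called, 2 higher and 6 lower, while 22.3% of all genes were called. The spread within groups that chose the members is also the error of this test, so the rule itself lowers their share of calls, and nothing is read from its place below the background. The members' median standard error (SE) was 0.64 log2 units against 0.26 over all genes, and their log2 fold changes, with a median absolute value of 0.60 against 0.44, had a median within that error. In 0 members did the 10 tadpoles of codes 32 lie apart from those of codes 22 without overlap, against 1.52% of all genes. Scaled by total counts, which raised the median of all genes by 0.27 log2 units, 3 members were called, all of them higher. That scaling called 1534 of all genes, against 1889 by TMM. DESeq2 called 11 members (5 higher), the likelihood ratio test 12 (6 higher) and limma 10 (4 higher), each with 6 lower. Over all genes these tools called 2330, 1733 and 2143. Leaving out 1 tadpole gave from 3 calls (without C3208 or D2203) to 11 (without C2207). The count was 4 without C3210, D3205 or D3207, and 5 without C2208, C3207, D2206 or D3202. Over all genes the fits that left out 1 tadpole called from 1614 (without D2203) to 2057 (without C2204).

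AB205_0067780 of set 6 had the smallest adjusted p among the members in this comparison. Its CPM were 9.36, 2.42, 6.88, 3.42 and 6.29 in C22 and 3.05, 21.3, 21.1, 3.01 and 2.62 in D22. They were 44.9, 53.2, 9.53, 8.78 and 232 in C32 and 180.3, 51.3, 48.0, 64.7 and 39.3 in D32. All D32 tadpoles and 3 of the C32 tadpoles lay above every tadpole of codes 22, and C3207 and C3208 overlapped with them. The mean was 73.2 ± 73.3 CPM (SD, n = 10) in codes 32 and 7.95 ± 7.35 (SD, n = 10) in codes 22, with a log2 fold change of 3.20 (SE 0.62, adjusted p = 0.00153). It passed in each of the 20 fits that left out 1 tadpole and under 9 of 9 other settings. It was also called in D32 against D22, by 2.91 log2 units with an adjusted p of 0.0436, but there it passed in 0 of the 10 fits that left out 1 tadpole, with adjusted p from 0.0504 to 0.0894.

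AB205_0063430 of set 3 was the other member that rose, by 1.55 log2 units (SE 0.54, adjusted p = 0.0430). Its CPM were 79.5, 6.79, 27.4, 7.04 and 32.2 in C22, 62.6, 80.7, 37.3, 98.2 and 126 in D22, 54.7, 51.7, 173, 294 and 137 in C32, and 185, 21.1, 389.7, 182 and 145 in D32. The groups overlapped, and D3203 was lower than 8 of the 10 tadpoles of codes 22. It passed in 7 of the 20 fits that left out 1 tadpole, with adjusted p from 0.0227 to 0.0786.

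Among the 6 members that fell, AB205_0012790 had the smallest adjusted p, 0.0264, with a log2 fold change of -2.67 (SE 0.83). Its CPM were 17.4, 4.43, 5.53, 5.30 and 21.3 in C22, 15.2, 19.2, 313, 10.5 and 3.49 in D22, 9.92, 12.8, 3.25, 0.874 and 3.69 in C32, and 14.9, 2.05, 9.71, 3.93 and 3.99 in D32. D2203 alone was far above all others, and without it the log2 fold change was -0.80 with an adjusted p of 0.278. AB205_0080080 fell by 1.79 log2 units (SE 0.57, adjusted p = 0.0278). Its CPM were 43.6, 35.0, 40.6, 7.04 and 60.6 in C22, 51.7, 22.4, 127, 46.3 and 9.06 in D22, 15.1, 19.9, 15.9, 21.1 and 21.2 in C32, and 1.44, 0.462, 14.3, 6.63 and 11.9 in D32. C2207 and D2209 were the tadpoles of codes 22 that overlapped with codes 32. The call passed in 19 of the 20 fits that left out 1 tadpole and under 7 of 9 other settings. Without D2203 the adjusted p was 0.0662.

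In codes D against C, 0 members and 0 genes in all were called (0%), and no gene was without overlap (0%). An unadjusted p under 0.05 was found in 11 members against 5.32% of all genes, and DESeq2 called 3 members, whereas edgeR's likelihood ratio test and limma called 0. Over all genes DESeq2 called 82, the likelihood ratio test 6 and limma 1. The smallest p among the members was that of AB205_0148310, at 4.84 ± 4.03 CPM (SD, n = 10) in codes D and 26.5 ± 31.1 (SD, n = 10) in codes C, with a log2 fold change of -2.45 (SE 0.69, adjusted p = 0.427). For the interaction of both code factors, 0 members and 0 genes in all (0%) were called, with an unadjusted p under 0.05 in 10 members against 12.9% of all genes. DESeq2 and the likelihood ratio test called 1 member each and limma 0, against 432, 24 and 0 of all genes.

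**Figure D4:**
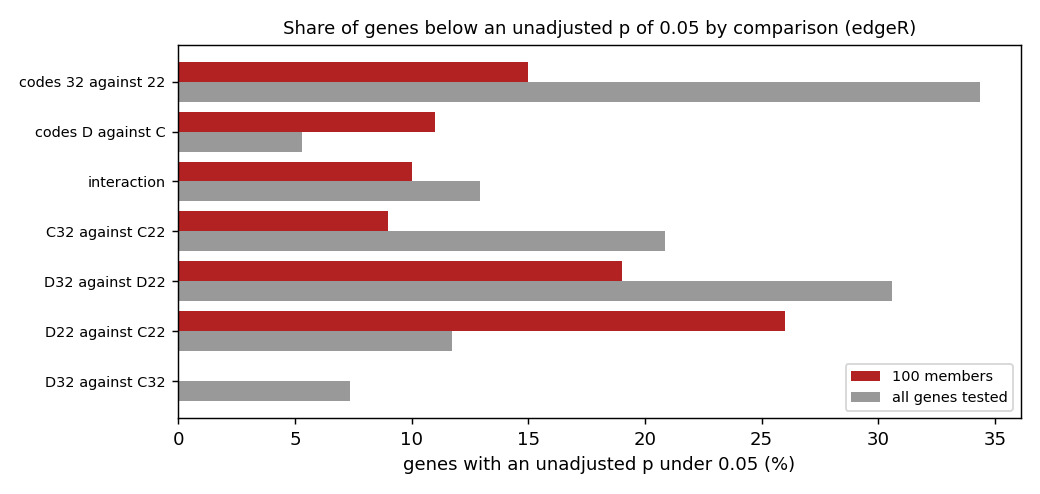
Share (percent, horizontal axis) of the 100 members (red) and of all 8477 genes (grey) with an unadjusted p under 0.05 in each of the 7 comparisons by edgeR's quasi-likelihood test. The members' share is below that of all genes for codes 32 against 22 (15% against 34.4%) and above it for D22 against C22 (26% against 11.7%).

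In C32 against C22, the temperature comparison of colonized tadpoles by code, 0 members were called by edgeR's quasi-likelihood test against 0.59% of all genes, with an unadjusted p under 0.05 in 9 members against 20.9% of all genes. DESeq2 called 5 members, and the likelihood ratio test and limma 1 each, against 956, 257 and 120 of all 8477 genes. No member (0 of 100) was without overlap, against 6.63% of all genes. Without C3205, 2 members were called, against 127 of all genes. The smallest p belonged to AB205_0067780, with 69.6 ± 92.8 CPM (SD, n = 5) in C32 and 5.67 ± 2.79 (SD, n = 5) in C22 and an adjusted p of 0.0895.

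In D32 against D22, the temperature comparison of depleted tadpoles by code, 6 members were called, 5 higher and 1 lower, against 12.7% of all genes. The groups did not overlap in 5 members, 3 higher and 2 lower in D32, against 12.6% of all genes. Scaled by total counts, which raised the median of all genes by 0.54 log2 units, 11 members were called and all were higher. That scaling called 1591 of all genes, against 1074 by TMM. The 6 calls fell to 1 without D2201, D2203, D2206 or D3202, to 2 without D3207 and to 3 without D2202. They were 4 without D2209 or D3205. Over all genes the 1074 calls became 427, 431, 590 and 618 without D2201, D2203, D2206 and D3202. They became 401 without D3207, 572 without D2202, 1290 without D2209 and 565 without D3205. That this comparison had calls and C32 against C22 had none does not show that they differ, and the interaction that tests this had no call.

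AB205_0127240, which belongs to none of the 6 sets, had the smallest adjusted p. Its CPM were 70.8, 18.5, 32.7, 41.5 and 67.1 in D22 and 599, 230.1, 681, 368 and 464 in D32. The groups were far apart, at 46.1 ± 22.4 CPM (SD, n = 5) and 468 ± 179.8 (SD, n = 5), with a log2 fold change of 3.34 (SE 0.45, adjusted p = 0.00785), and it passed in all 10 fits that left out 1 tadpole. In the groups coded C it was spread widely, with 441, 58.3, 123, 572 and 24.9 CPM in C22 and 921, 407, 87.4, 32.5 and 207 in C32, which overlapped.

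AB205_0182240 of set 1 had CPM of 129, 178, 65.3, 104 and 78.3 in D22 and 333, 855, 205, 268 and 298 in D32. The groups did not overlap, and its log2 fold change was 1.82 (SE 0.44, adjusted p = 0.0304). It passed in 5 of the 10 fits that left out 1 tadpole. In C22 and C32 its values ran from 40.8 to 859 and from 64.3 to 716 CPM and overlapped.

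AB205_0012780 was the only member called lower, by -1.95 log2 units (SE 0.50, adjusted p = 0.0356). Its CPM were 27.3, 23.4, 91.0, 57.8 and 17.1 in D22 and 14.0, 7.04, 8.02, 17.6 and 9.60 in D32, where D3206 just overlapped with D2209. Its identifier is next to that of AB205_0012790, described above for codes 32 against 22, and both deviated together with r = 0.63. It passed in 3 of 10 fits that left out 1 tadpole.

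AB205_0194110 of set 1 had the smallest p of the members for the interaction and for D32 against C32, and was called higher in D32 against D22. Its CPM were 21.8, 3.22, 13.5, 101 and 0.775 in C22, 8.55, 34.0, 24.6, 10.3 and 11.3 in C32, 2.31, 1.76, 1.70, 1.39 and 3.71 in D22, and 8.05, 1072, 8.40, 1.27 and 32.3 in D32. D3203 was more than 10 times as high as the next tadpole. In D32 against D22 its log2 fold change was 6.68 (adjusted p = 0.0465) with D3203 and 2.52 (adjusted p = 0.0602) without it, and the call held in 1 of the 10 fits that left out 1 tadpole, with adjusted p from 0.0394 to 0.108. For the interaction the adjusted p was 0.241, and for D32 against C32 it was 0.641.

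**Figure D5:**
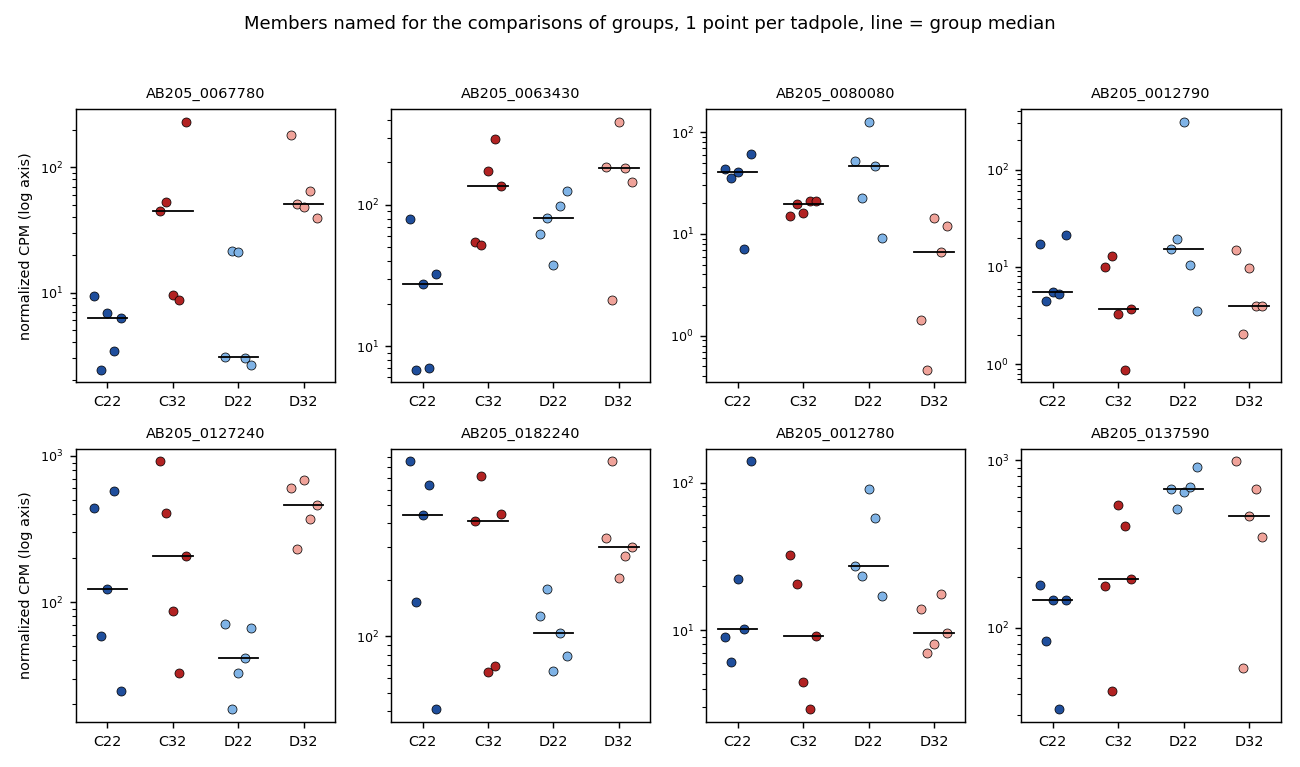
Normalized CPM (log axis) of 8 members named for the comparisons of groups, 1 point per tadpole by code group, with a line at the group median. AB205_0127240 does not overlap between D22 (18.5 to 70.8 CPM) and D32 (230.1 to 681), whereas in C22 and C32 its values overlap.

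In D22 against C22, 0 members and 0 genes in all (0%) were called by edgeR's quasi-likelihood test, but an unadjusted p under 0.05 was found in 26 members against 11.7% of all genes. DESeq2 called 15 members, the likelihood ratio test 8 and limma 1, against 350, 127 and 17 of all 8477 genes. The groups did not overlap in 9 members, 6 higher and 3 lower in D22, against 2.87% of all genes. The 6 that were higher all belonged to set 3, whose 12 members had log2 fold changes of 0.20 to 2.52 with a median of 1.81. Among them, AB205_0137590 had the smallest p of all members, with 685 ± 145 CPM (SD, n = 5) in D22 and 117 ± 58.9 (SD, n = 5) in C22, a log2 fold change of 2.52 (SE 0.42) and an adjusted p of 0.0783. Without C2208, 1 member was called, which was lower, against 2 of all genes. None of the 12 members of set 3 passed the test. Members of a set move together, so the 9 members without overlap and the 26 with an unadjusted p under 0.05 are not independent of each other. In set 1, 0 of 18 members passed, with log2 fold changes of -5.27 to 1.08 and a median of -1.51.

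In D32 against C32, 0 members and 0 genes in all (0%) were called, and 0 members had an unadjusted p under 0.05, against 7.35% of all genes. DESeq2, the likelihood ratio test and limma called 0 members as well, against 139, 8 and 0 of all genes. The groups lay apart in 1 member, AB205_0080080, against 1.42% of all genes. It was lower in D32, with a log2 fold change of -1.45 and an adjusted p of 0.656. Both comparisons of codes D with codes C share no tadpole, and whether they differ was tested only by the interaction.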

How the data were processed

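Whole-number read counts per gene were used as deposited. The authors made these counts with Trim Galore, BWA (bullfrog draft genome) and StringTie, whose versions are not given in the sources used here, and removed scarce transcripts without normalizing. Counts were scaled by TMM in edgeR 4.0.16 (R 4.3.3), and log2 CPM used a prior count of 2. Deviations are log2 CPM minus the group mean. Sets came from average-linkage clustering on 1 minus r, divided at a height of 0.5. The 7 comparisons used glmQLFit and glmQLFTest on the tadpoles compared, over all 8477 genes, without covariates. The interaction used all 20. SE was derived from the log2 fold change and the test's F. The scripts were tested on simulated data. Alternatives included DESeq2 1.42.0, limma 3.58.1 (voom) and other scalings, filters and tadpoles.

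The members, the sets and the rule for naming genes were chosen with earlier results of these data known. Named were the 10 members with the highest median SD, 2 leading members per set, up to 2 called members per direction and comparison with the smallest adjusted p (or the 1 with the smallest p), and the genes at the threshold. Other named genes were chosen after their values were seen. Lists of gut cell markers and of pathways could not be applied, since identifiers were not paired with names.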

Additional observations from a re-analysis of the deposited data

Results flagged for a closer look

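Single tadpoles stood far from the other 4 of their group in 12 of the 116 sets of 5 values examined (29 named members in 4 groups). How often chance flags such values was not measured, and the members were chosen for their spread. Low values were those of AB205_0209510 in D2202 (0.566 CPM, against 44.2 to 64.8 in the others) and in D3206 (0.112, against 16.6 to 26.4). C2208 was low in AB205_0031170 (7.75 CPM, against 532 to 1399.8), in AB205_0193900 (0.775, against 83.8 to 199.8) and in AB205_0203630 (1.98, against 121 to 404). In AB205_0046750, D2203 was low at 40.1 CPM (against 311 to 583) and D3206 at 56.0 (against 745 to 1641). D2206 was low in AB205_0174360 (3.24, against 9.30 to 11.1), C2207 in AB205_0080080 (7.04, against 35.0 to 60.6) and C3210 in AB205_0115840 (13.3, against 58.0 to 72.1). High values were those of AB205_0046280 in C2208 (647 CPM, against 21.2 to 49.4) and of AB205_0122660 in C3204 (85.3, against 3.10 to 4.14). C2208, the shallowest library, was the tadpole in 4 of the 12, and the part of its depth was not tested.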

How the results depend on the processing

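The choice of members depended on how spread was measured. Of the 100 members, 58 remained with the lowest of the 4 SDs, 59 with the median absolute deviation and 0 when genes with counts of 0 were kept, since all 100 chosen then had a count of 0. Leaving out 1 tadpole kept 80 to 98. Component 1 held 26.5% on ranks, 21.7% without D3203 and C2208, and 24.1% to 30.8% with 1 tadpole left out.

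For codes 32 against 22, the 8 calls became 11 with DESeq2 (5 higher, 6 lower) and 12 by likelihood ratio (6 higher, 6 lower). With limma and with a filter of 10 counts they became 10 each (4 higher, 6 lower). Over all genes these 4 settings called 2330, 1733, 2143 and 1921. The 8 calls became 3 by total counts, 4 with the other code factor as covariate, 5 without D3203 and C2208, and 3 to 11 with 1 tadpole left out. Over all genes the 1889 calls became 1534, 1832, 1892 and 1614 to 2057. For D32 against D22, the 6 became 17 with DESeq2, 14 with the likelihood ratio test, 11 by total counts, and 1 to 7 with 1 tadpole left out. Over all genes the 1074 calls became 1949, 948, 1591 and 401 to 1290. Without D3203 and C2208, 6 members were called in D32 against D22, of which 2 were among the original 6, and 1126 of all genes. From 0, calls of members rose for C32 against C22 to 5 (DESeq2), 1 (likelihood ratio) and 1 (limma). They were 1 with all 4 groups in one fit and 0 to 2 with 1 tadpole left out. Over all genes the 50 calls became 956, 257, 120, 254 and 9 to 127. For D22 against C22 calls of members rose to 15, 8 and 1 by the same tools. They were 1 without D3203 and C2208, and 0 to 1 with 1 tadpole left out. Over all genes the 0 calls became 350, 127, 17, 2 and 0 to 5. Calls of members rose to 3 for codes D against C (DESeq2, with 82 over all genes). For the interaction they rose to 1 by DESeq2 (432 over all genes) and by the likelihood ratio test (24). The cause was not tested.

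Some animal numbers were shared between groups. Deviations of 12 such pairs of tadpoles correlated at -0.41 to 0.22 (median -0.07), against -0.50 to 0.52 (median 0.01) in 138 other pairs. Whether the numbers pair tadpoles was not tested. With the number as a replicate block, member calls were 1 for codes 32 against 22 and 0 for D32 against D22. Over all genes the calls were 436 and 0, against 1889 and 1074 without the block. A tadpole whose number occurs on only 1 side of a comparison adds nothing to the difference estimated in such a fit. The differences in the block fits thus rested on fewer tadpoles, and what lay behind the lower counts was not tested. All 4 groups in one fit is already the fit of the interaction. Leaving out D3203 and C2208 was chosen after seeing the data. Low counts (3 to 9 reads on the low side of AB205_0209510) limit the size of the widest gaps.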
